A study of Mus musculus with 14 samples.

Results

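The Hox-positive rhombic lip progenitors of the E14.5 (embryonic stage) mouse hindbrain were the cells that held at least 3 UMIs of Ccnd1, at least 1 UMI of Pax6, at least 2 UMIs of Hoxb2, Hoxb3 and Hoxb4 together, 0 UMIs of Nhlh1 and at most 4 UMIs of Mapt. A UMI is a tag that marks 1 captured RNA molecule. Cells entered with 1000 or more detected genes and a mitochondrial share of UMIs below 10%. Of the 49696 E14.5 cells that these limits kept, 1692 met the rule, and 122658 cells were kept over the 14 libraries of the whole series. The control libraries gave 88, 126 and 84 of the selected cells, and the Atoh1S193A/- libraries gave 468, 338 and 588.

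The 6 libraries came from hindbrains of C57BL/6J embryos, 1 embryo per library, with 3 embryos of each genotype and a control littermate for each Atoh1S193A/- embryo. Control embryos were Atoh1Cre/+; Rosa lsl-tdTomato/+, and Atoh1S193A/- embryos were Atoh1Cre/S193A; Rosa lsl-tdTomato/+. Cre takes the place of the Atoh1 coding region in the Cre allele, so controls also carried 1 null allele of Atoh1, and the mutants carried that null allele and the S193A allele, in which serine-193 is changed to alanine. Live cells that expressed TdTomato were sorted, so a cell could enter only after Cre had acted in it or in a cell it descended from.

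The rhombic lip is the dorsal edge of the hindbrain neuroepithelium, and its progenitors express Atoh1, a proneural transcription factor, as they begin to form glutamatergic neurons of the precerebellar nuclei and the cerebellum. Ccnd1 encodes a D-type cyclin that drives progenitors through G1, Pax6 is a transcription factor of hindbrain progenitors, and Hox genes of paralog groups 2 to 4 are expressed in the caudal hindbrain but not in the rostral lip that gives rise to cerebellar granule cells. Nhlh1 appears in migrating neurons and Mapt in differentiated neurons, so both were required to be absent or low.

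The label of the samples calls the sorted cells neurons, whereas the selected cells carried progenitor genes. Hes5, a Notch effector that represses neuronal differentiation and a marker that the rule did not use, was at 975, 537 and 535 CPM (UMIs of a gene per 1000000 UMIs) in the selected cells of control libraries 1, 2 and 3. In the Atoh1S193A/- libraries it was at 1064, 745 and 824 CPM. Mapt-high cells, read as differentiated neurons, were cells of the same libraries with at least 15 Mapt UMIs and at most 2 Ccnd1 UMIs. They had no limit on Pax6 or Hox genes, so they need not be of the same lineage. Their low levels of progenitor genes are partly set by the limits on Mapt and Ccnd1. Hes5 ranged from 7.61 to 29.2 CPM in Mapt-high cells. Sox2, a transcription factor of neural progenitors, ranged from 312 to 400 CPM in the selected cells and from 5.73 to 15.2 CPM in Mapt-high cells. In the Hox-positive intermediate cells described below, Hes5 ranged from 423 to 1045 CPM and Sox2 from 244 to 337 CPM. Both ranges overlap those of the selected cells, so these genes do not set the selected cells apart from intermediate cells. With each cell thinned to 8000 UMIs, 34.1% to 49.1% of the selected cells of a library held a UMI of Mki67, a gene of dividing cells, whereas 1.98% to 3.38% of Mapt-high cells did. The reporter transcript, read through its WPRE sequence, was found in 75.9% to 93.3% of the selected cells and in 75.5% to 85.9% of Mapt-high cells.

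The genes of the rule are given as a description. Ccnd1 was at 1093, 1583 and 1059 CPM in controls and 1322, 2000 and 1386 CPM in Atoh1S193A/- embryos. Pax6 was at 561, 717 and 524 CPM against 620, 724 and 559 CPM. Hoxb2 ranged from 197 to 311 CPM, Hoxb3 from 115 to 191 CPM and Hoxb4 from 74.4 to 163 CPM over the 6 libraries. Cells just inside and just outside the limits differed by amounts that depended on the clause. The 81 cells with exactly 3 Ccnd1 UMIs had 945 CPM of Hes5 and 966 CPM of Id3, and the 141 cells with 2 Ccnd1 UMIs that met every other clause had 845 and 773 CPM. The Hox limit separated less similar cells, because the 87 cells with exactly 2 Hox UMIs had 350 CPM of Sox2 and the 222 cells with 1 Hox UMI had 147 CPM. Only 59 cells were lost for a single Nhlh1 UMI and 13 because they held 5 Mapt UMIs.

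Depth was similar between genotypes. The median selected cell of a library held between 19149.5 and 21315 UMIs and between 4467 and 5138.5 genes, with 3.01% to 3.89% mitochondrial UMIs. UMIs summed over the selected cells came to 1680566 to 2828996 in controls and to 7542268 to 13559928 in Atoh1S193A/- libraries, so control levels rest on fewer molecules. Between 0.296% and 5.95% of the selected cells of a library were among its 7.5% of cells with the highest doublet scores, and they were kept. Any pair of the 6 libraries shared 15 to 34 cell barcodes among all deposited barcodes, before the quality limits. Per the file headers, Cell Ranger 3.1.0 produced control libraries 1 and 2 and version 5.0.1 the remaining 4. The groups compared here were all cut from the same cells by UMIs of the genes of the rule and of Atoh1.

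The first comparison asked how large a part of the sorted cells these progenitors were. They made up 1.37%, 1.42% and 0.865% of kept cells in controls and 5.89%, 4.07% and 6.95% in Atoh1S193A/- libraries. The means were 1.22% ± 0.309 and 5.63% ± 1.45 (SD, n = 3 libraries), a 4.62-fold ratio, and every mutant library lay above every control library. The ratio within a pair of same-numbered libraries, read as littermates, ran from 2.86 to 8.03. Because the rule sets a limit on Ccnd1 UMIs, this share is a description and was not tested. The ratio was 4.51 when the rule was applied to cells thinned to 8000 UMIs and 4.78 when Ccnd1 was required at 5 UMIs. At a mitochondrial limit of 5% it was 4.06. Without the 1416 kept cells of any type that held at least 20 UMIs of Ttr or Hbb-bs, 24 of them selected cells, it was 4.70. Among cells that met the Pax6 and Hox clauses, whatever their Ccnd1, Nhlh1 and Mapt, the progenitors were 5.35% ± 1.71 in controls and 20.6% ± 1.67 in mutants (SD, n = 3), a 3.86-fold ratio.

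**Figure D1:**
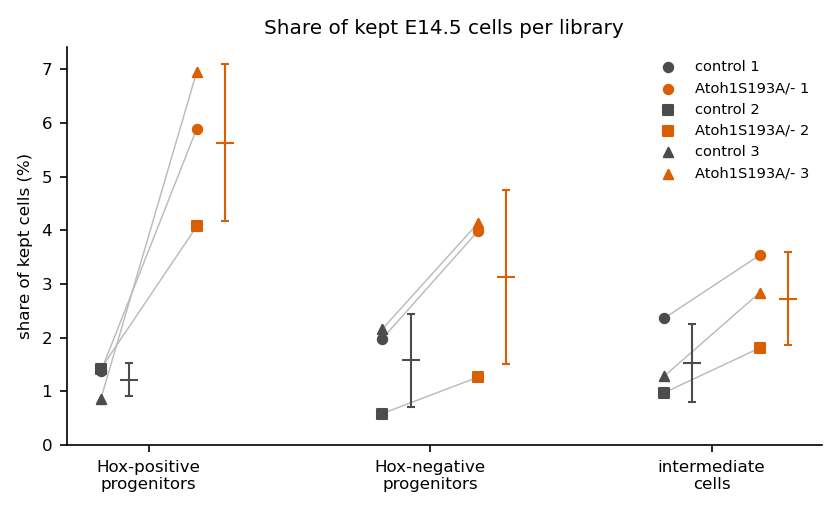
Share of kept E14.5 cells (%) in each library for Hox-positive progenitors, Hox-negative progenitors and intermediate cells. Grey symbols are controls and orange symbols Atoh1S193A/- libraries, lines join same-numbered libraries, and bars are means with SD of 3 libraries. Hox-positive progenitors are at 0.865% to 1.42% in controls and 4.07% to 6.95% in mutants.

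Cell groups cut by related rules gave smaller ratios. Hox-negative progenitors, which met the Ccnd1, Pax6, Nhlh1 and Mapt clauses but held 0 UMIs of Hoxb2, Hoxb3 and Hoxb4, numbered 1161 and made up 1.58% ± 0.86 of control cells and 3.13% ± 1.62 of mutant cells (SD, n = 3), a 1.98-fold ratio. Intermediate cells, which met the Pax6, Hox, Nhlh1 and Mapt clauses with at least 5 Atoh1 UMIs and at most 2 Ccnd1 UMIs, numbered 1032 and made up 1.53% ± 0.73 and 2.73% ± 0.87 (SD, n = 3). There were 0.583, 1.47 and 0.677 progenitors for each intermediate cell in controls and 1.67, 2.25 and 2.45 in mutants, so the groups did not overlap. These shares have a common denominator, the differences between the ratios were not tested, and a sort by the reporter can set how many early cells enter.

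Next, the levels of genes within the selected cells were compared between genotypes. UMIs were summed per library and the 10195 genes detected in 10% or more of the selected cells of either genotype were tested by edgeR's quasi-likelihood test, with a call at a false discovery rate (FDR) below 0.05 and an absolute log2 change above 0.25. A gene could enter through the cells of a single genotype, where it is higher. No gene passed in the fit without pairing (0 of 10195 genes, 0%), while 342 genes had an unadjusted p below 0.05 and DESeq2 called 7 genes (0.0687%). Same-numbered libraries, read as littermates, varied together, with correlations of 0.605, 0.608 and 0.454. In the fit with the replicate number as a block, edgeR called 13 genes (0.128%), of which 7 were higher (0.0687%) and 6 lower (0.0589%) in the mutants. DESeq2 with the same block called 17 genes (0.167%), and 8 of the 13 were among them. It did not call Barhl1, Sulf2 and AC160336.1, and it gave Rab15 and Pdlim3 no adjusted p. With Ccnd1 required at 5 UMIs, a setting chosen after seeing the data, the blocked edgeR fit called 0 genes higher and 2 lower, Svil and AC160336.1. The results of this comparison therefore rest on the blocked fit. All 13 differed in the same direction in each of the 3 pairs, and 10 of the 13 had libraries that did not overlap between genotypes, against 911 of all tested genes (8.94%), 461 of them with every mutant library above (4.52%) and 450 below (4.41%). The 13 were chosen by a test on these same values, so neither count is separate support for the calls.

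2 of the 13 called genes belonged to the list of proneural factors and Atoh1 targets, and both were lower in Atoh1S193A/- progenitors. The list was written with earlier results of these data known, so membership in it is no separate support. Barhl1 (chr2:28907679-28916668, GRCm38), a homeobox gene that acts in the migration and survival of rhombic lip neurons, was at 118, 96.6 and 140 CPM in controls and 74.4, 22.3 and 48.7 CPM in mutants. Every mutant library was below every control library, and the blocked log2 change was -1.40 ± 0.20 (SE, FDR = 0.041 by edgeR with the block, 1.0 without), while DESeq2 with the block did not call it (FDR = 0.101). Rab15 (chr12:76797960-76822908), a small GTPase of vesicle traffic, was at 14.3, 10.0 and 23.2 CPM in controls and at 2.66, 2.86 and 3.49 CPM in mutants. Its libraries did not overlap either, with a log2 change of -2.36 ± 0.25 (SE, FDR = 0.00635 with the block, 0.172 without). Rab15 passed the filter on detection through the control cells alone, so its direction is not independent of that filter.

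The rest of that list did not pass. Atoh1 itself (chr6:64729125-64731245) was at 233, 163 and 139 CPM in controls and 211, 158 and 151 CPM in mutants, and both groups covered the same range. Its blocked log2 change was -0.03 ± 0.08 (SE, FDR = 0.95 by edgeR). A count of 3′ tags does not read the S193A change, so this level does not check the genotype. The sign of its change turned in several other settings. Of the 14 tested members 12 had a log2 change below 0, with a median of -0.31 against 0.00 over all genes tested. Because the list was written with earlier results known, this count is a description, and the list was not tested. Among those that did not pass, Insm1, a zinc finger factor of neurogenesis, had -0.54 ± 0.15 and Mfng, which modifies Notch receptors, had -0.62 ± 0.14 (SE, FDR = 0.30 and 0.17 by edgeR with the block). Both genes were lower in the mutants of all 3 pairs.

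**Figure D2:**
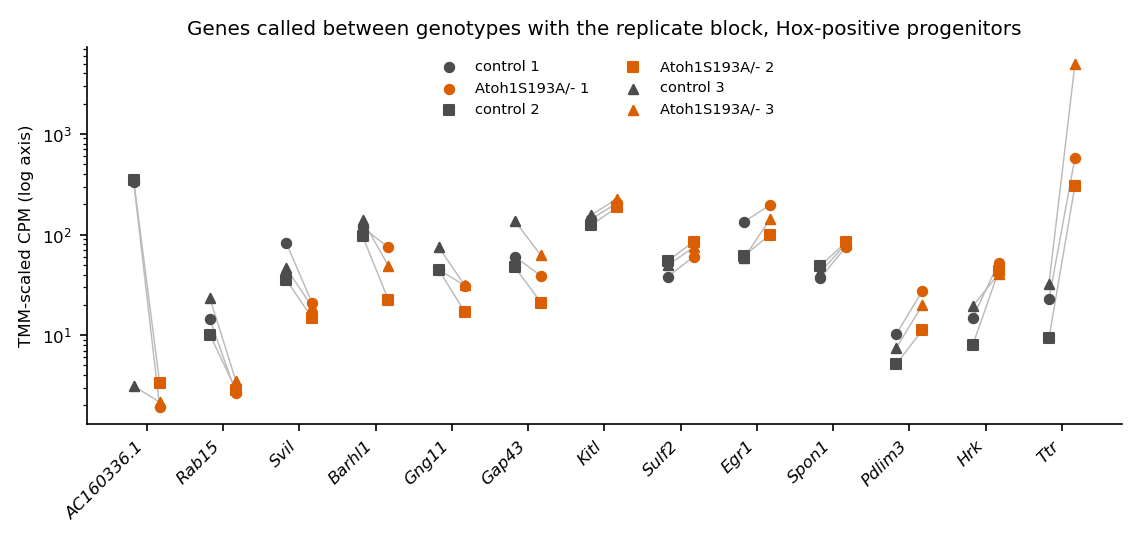
Levels of the 13 genes called with the replicate block, in TMM-scaled CPM on a log axis, for each control (grey) and Atoh1S193A/- (orange) library, with same-numbered libraries joined. All pairs move in the direction of the call, and the libraries of Gap43, Egr1 and AC160336.1 overlap between genotypes.

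Of 19 tested neuron differentiation genes 1 was called. Gap43, a growth cone protein, was at 60.2, 47.1 and 135 CPM in controls and at 38.7, 21.05 and 61.9 CPM in mutants, which overlap, and it passed only through the pairs (log2 change -0.99 ± 0.12 SE, FDR = 0.0113 by edgeR with the block). Of the 19 members 18 had a log2 change below 0, with a median of -0.38, and the list was not tested. Stmn2, a microtubule regulator of growing neurites, was at 85.4, 90.7 and 214 CPM against 70.7, 46.0 and 106 CPM, and did not pass (FDR = 0.065). Elavl3, a neuronal RNA-binding protein, did not pass at -0.67 ± 0.13 (SE, FDR = 0.097 by edgeR with the block), nor did Tubb3 at -0.45 ± 0.13. Mapt, which is of the rule, was at 15.1, 18.9 and 37.2 CPM in controls and at 12.5, 14.3 and 20.6 CPM in mutants.

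Of 18 tested cell death genes 1 was called. Hrk (chr5:118164648-118189478), a BH3-only activator of apoptosis, was at 14.9, 7.96 and 19.4 CPM in controls and at 52.2, 43.2 and 40.7 CPM in mutants. All mutant libraries were above all control libraries (log2 change 1.77 ± 0.22 SE, FDR = 0.0113 by edgeR with the block, 0.172 without). Hrk passed the filter on detection through the mutant cells alone, so its direction is not independent of that filter. At 8000 UMIs per cell, Hrk was found in 4.55%, 5.56% and 7.5% of selected control cells and 18.3%, 11.6% and 15.6% of selected mutant cells, and in 7.43% to 10.0% of Mapt-high cells. The control shares were thus at or below those of Mapt-high cells, and the mutant shares above them. Bcl2l11, another BH3-only gene, was at 21.8, 23.9 and 26.3 CPM against 41.7, 31.6 and 34.8 CPM without overlap, and did not pass (log2 0.57 ± 0.15 SE, FDR = 0.29 by edgeR with the block). The median of the list was -0.04, with 9 of 18 members above 0.

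Of the other called genes, Spon1 (chr7:113765998-114043370), an extracellular matrix protein known from the floor plate, was at 36.7, 48.8 and 42.0 CPM in controls and 76.0, 84.0 and 81.4 CPM in mutants, which did not overlap. Its log2 change was 0.91 ± 0.10 (SE, FDR = 0.00635 by edgeR with the block, 0.172 without). The share of cells with a Spon1 UMI at 8000 UMIs was 18.2%, 30.2% and 22.5% in controls and 34.0%, 43.5% and 36.5% in mutants, and 6.93% to 8.97% in Mapt-high cells. Kitl (chr10:100015630-100100416), the ligand of the Kit receptor, was at 143, 125 and 157 CPM against 206, 186 and 228 CPM, and Sulf2, which trims sulfates from heparan sulfate, at 37.8, 54.7 and 49.5 CPM against 60.3, 84.6 and 74.3 CPM. Both sets of libraries were separate, with log2 changes of 0.55 ± 0.07 and 0.63 ± 0.09 (SE, FDR = 0.0141 and 0.0441 by edgeR with the block).

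3 called genes have roles in the cytoskeleton or in G protein signaling. Svil, which binds actin, was at 82.6, 35.3 and 46.4 CPM in controls and at 20.7, 14.8 and 19.0 CPM in mutants, and Pdlim3, also a cytoskeletal protein, was at 10.3, 5.19 and 7.52 CPM and 27.5, 11.2 and 19.9 CPM. Gng11, a G protein gamma subunit, was at 44.7, 44.3 and 74.5 CPM against 31.1, 17.1 and 31.2 CPM. None of the 3 overlapped between genotypes. Their log2 changes were -1.53 ± 0.17, 1.31 ± 0.20 and -1.06 ± 0.16 (SE, FDR = 0.00635, 0.0441 and 0.0441 by edgeR with the block).

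The remaining 3 calls were Ttr, AC160336.1 and Egr1. Ttr, a transport protein made in large amounts by the choroid plexus, was at 22.9, 9.34 and 32.6 CPM in controls and at 578, 306 and 4936 CPM in mutants (log2 change 5.94 ± 0.37 SE, FDR = 0.000141 by edgeR with the block). At 8000 UMIs per cell a Ttr UMI was found in 7.95%, 7.14% and 23.8% of selected control cells and 31.2%, 22.3% and 82.4% of selected mutant cells, and in Mapt-high cells the shares were 17.4%, 6.76%, 22.5%, 31.8%, 20.6% and 81.1% in the same order. Beyond these shares, the UMIs sat in a few cells: the 5 cells with the most Ttr held 81.0%, 86.9% and 64.3% of the Ttr UMIs of mutant libraries 1, 2 and 3, whereas no selected control cell held more than 2 at that depth. Leaving out 24 cells with at least 20 UMIs of Ttr or Hbb-bs, all from mutant libraries, gave a log2 change of 1.996 for Ttr (FDR = 0.00999), and all 13 calls were kept among 18 calls. The 10 choroid plexus markers together were at 383 to 499 CPM in controls and 599 to 5404 CPM in mutants, and the 9 without Ttr at 352 to 477 and 277 to 559 CPM. What part cells of other types and free RNA have in the level of Ttr was not tested.

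The long noncoding RNA AC160336.1 (chr14:44544055-44637201) was at 331 and 345 CPM in control libraries 1 and 2, which Cell Ranger 3.1.0 made, and at 3.13 CPM in control library 3 and 1.94, 3.36 and 2.16 CPM in mutants, which version 5.0.1 made. Over the libraries of version 5.0.1 alone its log2 change was -0.36, so its level followed the software version within the controls. Egr1, an immediate early transcription factor, was at 133, 61.3 and 58.3 CPM in controls and at 196, 99.3 and 141 CPM in mutants, with overlap. Its log2 change was 0.81 ± 0.12 (SE, FDR = 0.0437 by edgeR with the block). All 8 tested immediate early and dissociation genes had log2 changes above 0, with a median of 0.64, and the 10 on the list summed to 676 to 1213 CPM in controls and 923 to 1350 CPM in mutants. In Mapt-high cells the 10 summed to 236 to 530 CPM in controls and 431 to 567 CPM in mutants. What part dissociation of the tissue has in Egr1 was not tested.

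Apart from the choroid plexus markers given above, the marker lists of other cells were as follows. The 12 ventral and inhibitory lineage markers summed to 22.9 to 25.2 CPM in controls and 19.99 to 50.4 CPM in mutants, with Ptf1a at 0 in every library. The 7 glia markers were at 18.6 to 34.8 CPM and 7.23 to 24.0 CPM, the 6 mesenchyme markers at 4.21 to 11.8 and 3.29 to 30.6 CPM, the 7 microglia markers at 0 in controls and 0 to 25.04 CPM in mutants, and the 7 granule lineage markers at 55.9 to 71.9 and 71.5 to 85.7 CPM. Haemoglobin was high in mutant library 3 alone, where Hbb-bs was at 1306 CPM and 2 cells held nearly all of it. Without haemoglobin genes the blood and vessel markers were at 19.0 to 57.9 CPM in controls and 28.6 to 48.4 CPM in mutants.

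With 0.128% of all genes called, lists of this size could be without a call whatever their genes, and most were. None of the 18 tested Notch pathway genes passed, and their median log2 change was 0.05. Hes5, Notch1 and Nrarp, the last a feedback inhibitor of Notch, had 0.36 ± 0.09, 0.32 ± 0.09 and 0.61 ± 0.17 (SE, FDR = 0.23, 0.29 and 0.34 by edgeR with the block). None of the 42 S phase genes, the 51 G2 and M phase genes, the 18 genes of G1 and cell cycle exit, the 18 neural progenitor genes or the 8 Hox genes outside the rule passed, and their medians were -0.01, 0.03, -0.02, 0.18 and -0.03. Fabp7, a fatty acid binding protein of radial glia, was at 783, 806 and 605 CPM against 418, 643 and 461 CPM, with an FDR of 0.10. The inhibitors of differentiation Id1 and Id3, which act downstream of BMP signals, were at -0.41 ± 0.07 and -0.38 ± 0.08 and did not pass (SE, FDR = 0.083 and 0.13). On simulated counts the blocked fit recovered 90% of genes with a 2-fold change and the fit without block 69%, with 24 and 14 false calls beside 200 changed genes. The changed genes were drawn from those with higher counts, and the simulated counts held no pair effect. Changes below 2-fold were not simulated, so recovery of changes as small as those of Hes5 and Notch1 is not known.

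The share of selected cells with a UMI was compared for 8 genes at 8000 UMIs per cell, with an exact permutation test (two-sided) that cannot go below 0.1 with 3 libraries a group. Barhl1 was found in 27.3%, 22.2% and 40.0% of control cells and 20.2%, 8.33% and 14.2% of mutant cells, a difference of -15.6 points without overlap (exact p = 0.1, adjusted over the 8 genes 0.8). In Mapt-high cells its share was 14.4% to 29.0%. Atoh1 was found in 58.0%, 40.5% and 46.2% of control cells and 54.8%, 49.1% and 46.1% of mutant cells (exact p = 0.9, adjusted 0.9), and in 7.16% to 12.8% of Mapt-high cells. Mki67 was found in 34.1%, 47.6% and 37.5% against 42.6%, 49.1% and 45.9%, and Hes5 in 84.1%, 69.8% and 72.5% against 85.8%, 79.8% and 78.1%. Both were higher in each of the 3 pairs but overlapped between genotypes (exact p = 0.3, adjusted 0.8, for each). The shares of Top2a, Pcna, Wnt1 and Lmx1a gave exact p of 0.8, 0.9, 0.4 and 0.7.

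The selected cells were not uniform, and several of the genes examined differed between cells with and without an Atoh1 UMI in all libraries. At 8000 UMIs per cell, in a separate random thinning from the one behind the shares above, between 42.5% and 56.6% of the cells of a library held an Atoh1 UMI. These cells had a mean of 2.66 to 4.58 Hes6 UMIs, and the cells without Atoh1 had 0.497 to 0.913. Barhl1 was found in 15.0% to 55.9% of cells with an Atoh1 UMI and in 2.19% to 21.7% of cells without, and Dcx, a microtubule protein of young neurons, in 26.1% to 55.9% and 14.1% to 26.3%. Each of these was higher with Atoh1 in 6 of 6 libraries. Hes5 was also higher with Atoh1 in 6 of 6 libraries, at means of 8.48 and 4.85 UMIs over libraries.

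Of the other genes examined in this split, Id3 was at a mean of 10.5 to 24.6 UMIs in cells without an Atoh1 UMI and 5.07 to 11.6 UMIs in cells with Atoh1. Wnt1, a ligand of the dorsal midline and rhombic lip, was found in 19.6% to 43.7% of cells without Atoh1 and in 8.16% to 23.5% of cells with it, and Lmx1a, a roof plate factor, in 11.9% and 3.51% on average. Id3, Id1 and Wnt1 were lower with Atoh1 in 6 of 6 libraries and Lmx1a in 5. Sox2 differed little, at 3.18 UMIs without and 2.99 UMIs with Atoh1. The share of cells with Hoxa3 or Hoxb5 was higher with Atoh1 in 4 of 6 libraries each, and that of Ttr in 3 of 6. The summed S phase genes were lower with Atoh1 in 5 of 6 libraries and the summed G2 and M phase genes higher in 5 of 6, at means of 30.9 against 37.6 and 76.3 against 70.1 UMIs. This split is a description of cells within libraries, with no test.

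**Figure D3:**
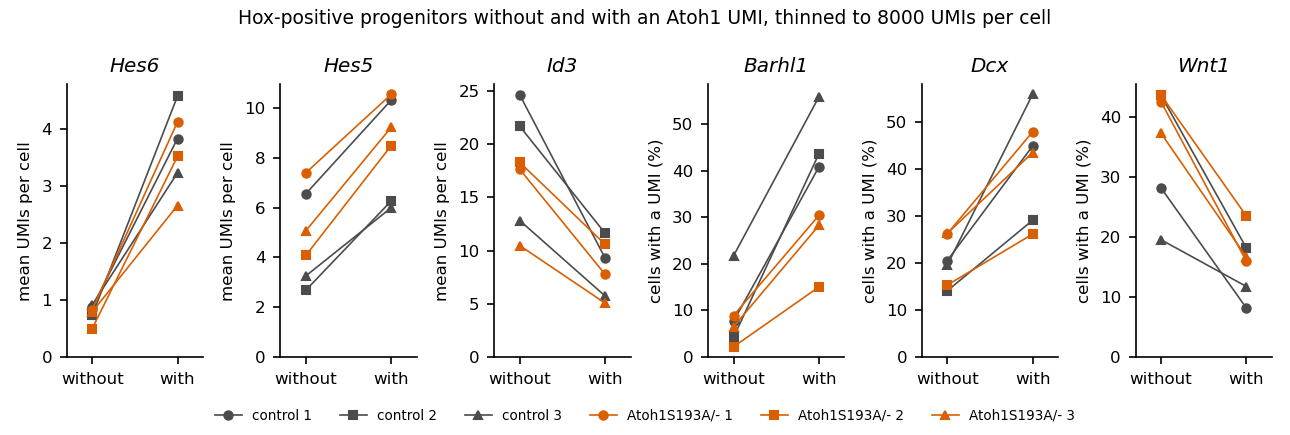
Selected cells without and with an Atoh1 UMI at 8000 UMIs per cell, 1 line per library, grey for controls and orange for Atoh1S193A/-. The vertical axes give mean UMIs per cell for Hes6, Hes5 and Id3 and the percent of cells with a UMI for Barhl1, Dcx and Wnt1. In all 6 libraries Hes6, Hes5, Barhl1 and Dcx are higher and Id3 and Wnt1 lower with Atoh1.

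Hox-positive progenitors were then compared with Hox-negative progenitors of the same embryos, with the library as a block. By edgeR, 3144 of 10694 genes were called (29.4%), 1629 higher (15.2%) and 1515 lower (14.2%) in the Hox-positive cells. The Hox clause of the rule separates the groups, so Hoxb2, Hoxb3 and Hoxb4 are not results. Of 21 listed Hox genes outside the rule 8 passed the filter on low values, and they could pass it through the Hox-positive cells alone, so their direction was largely set by the choice of groups and their values are a description. Hoxa2 was at 79.2 to 117 CPM in Hox-positive and 1.62 to 10.7 CPM in Hox-negative progenitors, and Hoxa3 at 48.8 to 65.8 and 0.403 to 2.13 CPM. Hox genes of groups 4 and 5 followed, with log2 differences of 4.96 ± 0.15 for Hoxa4, 3.90 ± 0.22 for Hoxc4, 3.13 ± 0.15 for Hoxa5 and 3.11 ± 0.17 for Hoxb5 (SE). Of cofactors and axial factors, Meis2 (1.69 ± 0.17) was higher and Pbx3 (-1.09 ± 0.08) and Nr2f1 (-1.07 ± 0.07) lower. En1, En2 and Pax5, which pattern the midbrain and rostral hindbrain, had log2 differences of -4.36 ± 0.21, -3.96 ± 0.18 and -2.82 ± 0.26. These genes could pass the filter through the Hox-negative cells alone. Their direction, too, was largely set by the choice of groups, and their values are a description.

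Of 19 tested neural progenitor genes 9 were higher and 2 lower in the Hox-positive cells, with a median of 0.17. Slc1a3, a glutamate transporter of radial glia, was at 358 to 439 CPM in Hox-positive and 49.3 to 98.4 CPM in Hox-negative progenitors (log2 difference 2.45 ± 0.10 SE). Sox2 and Sox9 differed by 1.85 ± 0.14 and 1.59 ± 0.13. In the Notch pathway 9 of 19 were higher and 2 lower, with a median of 0.27. The receptor gene Notch1 was higher by 1.76 ± 0.09, the effectors Hes1 and Hes5 by 2.01 ± 0.18 and 1.48 ± 0.10, and Lfng, which modifies Notch, by 2.11 ± 0.20, while the effector Hey1 was lower, at -1.31 ± 0.10 (SE).

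Of 21 tested rhombic lip and roof plate signals 14 were higher and 4 lower, with a median of 0.75. Id1 and Id3 differed by 2.69 ± 0.30 and 2.63 ± 0.26 (SE), Msx1, a target of BMP signals, by 2.79 ± 0.20, and Wnt1 by 1.94 ± 0.33. Olig3, a factor of dorsal progenitors, was at 145 to 262 against 14.05 to 59.3 CPM. The exceptions included Sp5, a target of Wnt signals, at -3.36 ± 0.17 and Pax3 at -1.28 ± 0.20. Of the proneural factors and Atoh1 targets 11 of 18 were lower and 4 higher, the lower ones including Barhl1 (-1.48 ± 0.09), Hes6 (-1.34 ± 0.08), Insm1 (-2.33 ± 0.11) and Neurod1 (-3.91 ± 0.15). Within Hox-positive cells only 14 of this list were detected widely enough to be tested. The other members entered through the Hox-negative cells alone, which largely set their direction, so the count is a description. Atoh1 itself was slightly higher at 0.31 ± 0.06. Of 20 neuron differentiation genes 18 were lower and 1, the guidance receptor gene Robo3, was higher (1.82 ± 0.16 SE). The 4 tested choroid plexus markers held 3 that were lower and none higher, and of 8 immediate early and dissociation genes 7 were higher with a median of 1.08. What part these have in the other differences was not tested.

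Of genes of G1 and cell cycle exit 4 of 19 were higher and 7 lower. Ccnd2, another D-type cyclin, was at 53.9 to 109 CPM in Hox-positive and 649 to 883 CPM in Hox-negative progenitors, and Cdkn1a, an inhibitor of cyclin-dependent kinases, at 52.7 to 91.0 against 5.65 to 16.4 CPM. Their log2 differences were -3.11 ± 0.13 and 2.96 ± 0.15 (SE). Ccnd1, which the rule requires in both groups, was at 1059 to 2000 CPM and 265 to 331 CPM. Of 42 S phase genes 2 were higher and 10 lower, with a median of -0.17, and of 51 G2 and M phase genes 5 were higher and 1 lower, with a median of 0.18. Over all genes tested 29.4% were called, 15.2% higher and 14.2% lower, so neither of these lists held a larger called share. Of other genes with a large difference, Vgll3, a cofactor of TEAD factors, was at 89.1 to 121 against 0.655 to 3.33 CPM, Prdm6 at 24.0 to 35.9 against 0 to 1.97 CPM, and Thsd7b at 0.378 to 6.00 against 67.7 to 123.02 CPM. Each could pass the filter through the group where it is high, so its direction was largely set by the choice of groups and its values are a description. The median log2 differences of the lists are set beside those against intermediate cells in the plot of gene lists.

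**Figure D4:**
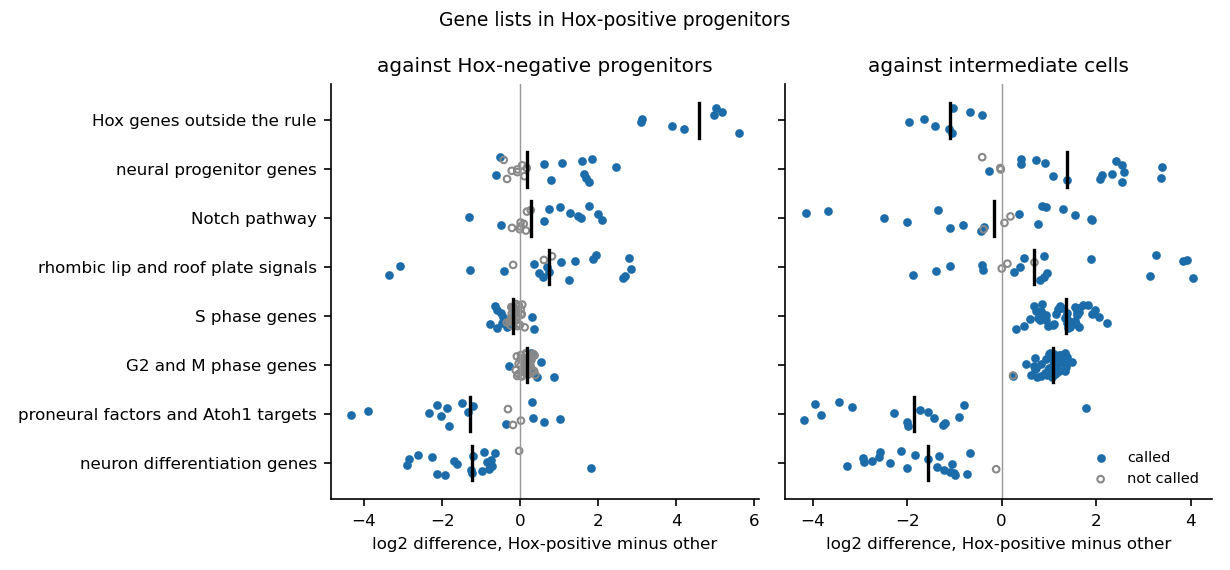
Log2 difference of each gene of 8 lists, Hox-positive progenitors minus Hox-negative progenitors (left) or minus intermediate cells (right). Filled points passed the edgeR test, open points did not, and black bars are list medians. Neural progenitor genes have a median of 0.17 on the left and 1.39 on the right, and S phase genes -0.17 and 1.37.

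Against intermediate cells, the next state of the Hox-positive lineage, 5191 of 10480 genes were called (49.5%), 2655 higher (25.3%) and 2536 lower (24.2%) in the progenitors. Ccnd1 and Atoh1 define the groups and are not results. Cell cycle genes and Atoh1 targets that vary with them from cell to cell could differ through this cut alone. A gene could also pass the filter through either group alone, so the values of these lists are a description. All 42 S phase genes and 50 of 51 G2 and M phase genes were higher in progenitors, with medians of 1.37 and 1.08. Mki67 was at 129 to 265 CPM in progenitors and 33.5 to 152 CPM in intermediate cells, which overlap between libraries although the progenitors were higher in 6 of 6 embryos (log2 difference 1.26 ± 0.11 SE). Ccne1, Ccne2 and Cdk2, which act at the start of S phase, differed by 1.46 ± 0.21, 1.91 ± 0.28 and 1.06 ± 0.15, whereas Ccnd2 was lower, at -1.46 ± 0.08.

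Of 19 neural progenitor genes 15 were higher and 1 lower, led by Slc1a3 at 353 to 432 against 30.9 to 45.2 CPM, and including Ptn (2.59 ± 0.07), Fabp7 (2.54 ± 0.15) and Sox9 (2.42 ± 0.08). Sox2 differed by only 0.41 ± 0.06 (SE). Of 20 tested Notch pathway genes 8 were higher and 9 lower. The receptor genes Notch1, Notch2 and Notch3 and the effector Hes1 were higher in progenitors, by 0.85 ± 0.09, 0.93 ± 0.12, 1.31 ± 0.21 and 1.55 ± 0.06. The ligand genes Dll1 and Dll3, Mfng and the effector Hey1 were lower, at -1.35 ± 0.20, -3.67 ± 0.11, -2.001 ± 0.10 and -2.49 ± 0.09. Hes5 was at 527 to 1074 CPM in progenitors and 450 to 1052 CPM in intermediate cells and was not called.

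The dorsal signals Wnt1 and Id3 were higher in progenitors, at 34.2 to 77.4 against 1.58 to 11.7 CPM and 959 to 2127 against 38.5 to 212 CPM. Of 16 proneural factors and Atoh1 targets 15 were lower and 1 higher. Because intermediate cells were chosen by their Atoh1 UMIs, this is a description. Barhl1 was at 22.2 to 139 CPM in progenitors and 463 to 987 CPM in intermediate cells, Rab15 at 2.64 to 23.0 and 16.8 to 162 CPM, and Nhlh2 at 3.096 to 13.1 and 64.2 to 100 CPM. All 8 Hox genes outside the rule were lower in progenitors, from -0.42 ± 0.11 for Hoxa4 to -1.97 ± 0.11 for Hoxb5. Of 21 neuron differentiation genes 20 were lower, and Unc5c, a netrin receptor gene, was not called. Of 8 immediate early and dissociation genes 7 were higher in progenitors, with a median of 1.59, and the median intermediate cell of a library held 15135 to 18798 UMIs. The part of either in these differences was not tested.

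Whether a genotype difference was particular to these progenitors was tested by the interaction of genotype and cell group. Against Hox-negative progenitors 4 of 10694 genes passed (0.0374%), and DESeq2 called 12 (0.112%). Pax3 (chr1:78101267-78197134), a paired box factor of dorsal progenitors, was at 102, 117 and 96.7 CPM in Hox-positive control cells and 61.8, 88.3 and 67.2 CPM in Hox-positive mutant cells, which did not overlap. In Hox-negative cells it was at 184, 150 and 130 CPM in controls and 240, 305 and 233 CPM in mutants, also without overlap and in the other direction. The difference of the genotype effects was -1.30 ± 0.14 on the log2 scale (SE, FDR = 0.00669 by edgeR). Within Hox-positive cells alone the change of Pax3 was not called (log2 -0.54 ± 0.09 SE, FDR = 0.065 by edgeR with the block).

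**Figure D5:**
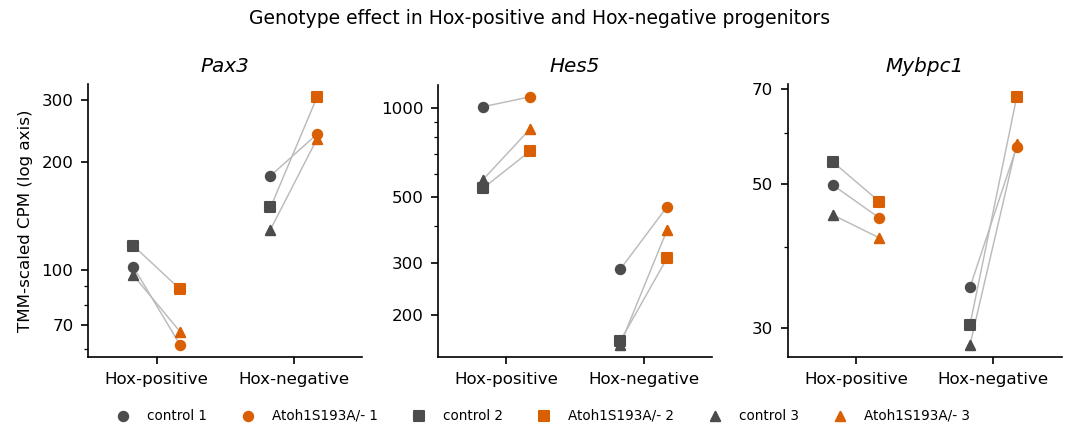
Levels of Pax3, Hes5 and Mybpc1 in TMM-scaled CPM on a log axis in Hox-positive and Hox-negative progenitors, control libraries in grey and Atoh1S193A/- in orange, same-numbered libraries joined. Pax3 is lower in mutants in Hox-positive cells and higher in mutants in Hox-negative cells in all 3 pairs, Mybpc1 likewise but with a smaller change in the former, and Hes5 is higher in mutants in both.

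Mybpc1 (chr10:88518279-88605152), a myosin binding protein gene, was at 49.9, 54.1 and 44.9 CPM in Hox-positive control cells and 44.4, 47.0 and 41.3 CPM in Hox-positive mutant cells, lower in each pair but with overlap. In Hox-negative cells it was at 34.7, 30.4 and 28.3 CPM against 57.1, 68.1 and 57.6 CPM, and the difference of the effects was -1.11 ± 0.15 (SE, FDR = 0.0441 by edgeR). Hes5 (chr4:154960923-154962371) was at 1011, 535 and 573 CPM against 1091, 714 and 847 CPM in Hox-positive cells and at 285, 163 and 158 CPM against 463, 310 and 386 CPM in Hox-negative cells. It was thus higher in mutants in each pair of both groups, and the difference of the effects was -0.61 ± 0.09 (SE, FDR = 0.0475 by edgeR). Ttr passed with 3.90 ± 0.39 (SE, FDR = 0.00616 by edgeR). In Hox-negative cells it was at 605, 430 and 2025 CPM in controls and 2310, 1209 and 7940 CPM in mutants, so control Hox-negative cells already held more Ttr than control Hox-positive cells. However, without the cells of both groups that held at least 20 UMIs of Ttr or Hbb-bs, 24 Hox-positive and 30 Hox-negative cells, its difference was -0.03. In that edgeR fit Pax3 alone passed (FDR = 0.012), and Mybpc1 and Hes5 did not (FDR = 0.075 each).

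Against intermediate cells no gene passed the interaction test (0 of 10480 genes, 0%), with 441 genes at an unadjusted p below 0.05 and 1 call by DESeq2 (0.00954%), the endothelin receptor gene Ednrb, which is named here after its value was seen. On simulated counts this test recovered 56% of 2-fold and 96% of 4-fold differences. Here too the changed genes were those with higher counts, no effect of the library was simulated, and smaller differences were left out.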

How the data were processed

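The authors sorted TdTomato-positive, DAPI-negative hindbrain cells, prepared libraries with the 10x Genomics 3′ kit, and used a reference of mm10 plus the WPRE element of the reporter. The deposited matrices hold raw UMI counts for 31054 features, without normalization by the authors; their notes name Cell Ranger 5.0.1, and the headers of 2 control libraries name 3.1.0. All columns of the 6 E14.5 libraries were mapped by their labels.

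The members, gene lists and tests were chosen with earlier results of these data known. Cells passed with 1000 or more detected genes and a mitochondrial share below 10%, and doublets were not removed. Scrublet scores (scanpy 1.11.5, Python 3.11.15) were used only in an alternative that leaves out the highest 7.5%. Cells were not treated as replicates: counts were summed per library and cell group. The replicate is the library, 1 embryo each.

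Sums were tested with edgeR 4.0.16 in R 4.3.3 (quasi-likelihood F test, TMM, Benjamini-Hochberg FDR below 0.05, absolute log2 change above 0.25, with no such limit for interactions). Levels are CPM (UMIs scaled to 1000000 per library) with TMM factors of each fit, except those of the marker checks and of the genes of the rule, which are plain CPM. DESeq2 1.42.0 was an alternative. Comparisons between cell groups used the library as a block. The protocol in the labels says that each mutant embryo was collected with a littermate control, and a shared replicate number was read as marking such a pair. The check gave correlations of 0.605, 0.608 and 0.454 over 4533 genes against -0.554 to -0.064 for other pairs of a control and a mutant library, so the blocked fit is printed beside the fit without it. Levels were first centered on the mean of each genotype, so positive correlations within pairs push the others below 0. The check cannot tell a shared litter from a shared preparation. Named genes were those of the lists, the called genes with the largest change whose libraries did not overlap or moved the same way in every pair, and the genes of the rule. Predicted, mitochondrial and sex-linked genes were not named, and some list members are not reported here. Gene positions came from GENCODE M21 (GRCm38). Fits were tested on simulated data. The E18.5 and P5 libraries were used only to apply the rule. Totals per E14.5 library were 121762137 to 193872318 UMIs.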

Additional observations from a re-analysis of the deposited data

Results flagged for a closer look

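Of the results above, 4 genes were set apart because their genotype effect differed between Hox-positive and Hox-negative progenitors in the interaction test. The differences on the log2 scale were 3.90 for Ttr, -1.30 for Pax3, -1.11 for Mybpc1 and -0.61 for Hes5. Pax3 passed in 12 of 15 settings, Ttr and Mybpc1 in 8 and Hes5 in 4. Pax3 and Mybpc1 were lower in mutants in each pair of Hox-positive cells and higher in each pair of Hox-negative cells, while Hes5 and Ttr were higher in mutants in both groups.

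The E18.5 libraries, which no comparison used, held few cells within the same rule, and 1 of them was set apart because it lay above every control. The first Atoh1S193A/- library of E18.5 had 42 such cells (0.370% of kept cells). The other Atoh1S193A/- libraries of that age had 6 and 7 cells (0.0713% and 0.0811%), and the controls had 12, 10 and 11 (0.149%, 0.106% and 0.120%). With 1 mutant library of 3 above the controls and 2 below, no direction can be read. The P5 libraries had 10 and 7 such cells.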

How the results depend on the processing

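Against 0 calls between genotypes, there were 16 without a filter on low counts, 7 by DESeq2, 1 with the rule on thinned cells, and 13 with the replicate block. With the block, there were 5 on thinned cells, 34 without the highest doublet scores and 11 with equal cell numbers. Settings chosen after seeing the data gave, with the block, 36 at a mitochondrial limit of 5%, 17 by DESeq2, 2 with Ccnd1 at 5 UMIs (0 higher and 2 lower), 18 without Ttr-high or Hbb-bs-high cells, and 62, 145 and 77 without both libraries of pair 1, 2 or 3. Leaving out libraries gave 0 to 145 calls in all, and 0 to 3 for single libraries (1, 3 and 1 without control library 3 and mutant libraries 2 and 3). The cause of these changes was not tested. Among the 13 genes, Svil, Hrk, Ttr and AC160336.1 were called in 9 of 10 other blocked settings, and Pdlim3 in 5. Against Hox-negative progenitors, control libraries alone gave 2058 calls. That interaction gave 148 calls without a filter, 12 by DESeq2, 2 without the highest doublet scores, 1 at the limit of 5%, 1 on thinned cells, 1 without Ttr-high or Hbb-bs-high cells (where Ttr turned to -0.034) and 0 to 14 without single libraries, with 2, 0 and 0 without control libraries 1, 2 and 3 and 11 and 14 without mutant libraries 2 and 3. The interaction with intermediate cells gave 64 without a filter, 1 by DESeq2 and 0 to 11 without single libraries (2 and 11 without mutant libraries 1 and 2). The progenitor share differed by 15.3 points among Pax6 and Hox cells. Shares of cells with a UMI that turned in sign were Top2a (-0.289 unthinned, -1.02 at 5000 UMIs, -0.607 without the highest doublet scores) and Pcna (0.453, 0.880 and 1.21), and without single libraries the ranges were -2.10 to 6.64 points for Atoh1, -4.51 to 4.35 for Top2a, -6.43 to 2.16 for Pcna and -0.934 to 4.17 for Lmx1a. No paired call was possible for shares, since 0.25 is the smallest sign-flip p of 3 pairs, and the block changed no other call. Among genes that the text names, comparisons with Hox-negative progenitors (38 genes) and intermediate cells (27) kept the side of the threshold in 531 and 374 repeats, lost a call in 1 and 3 and gained 1 in the latter (Hes5, on thinned cells), with no turn in sign. Between genotypes, Atoh1 turned to 0.00781 and 0.00941 with equal cell numbers without and with the block, 0.00574 on thinned cells with the block, -0.20 to 0.20 without single libraries, 0.32 over the libraries of Cell Ranger 5.0.1 and 0.04 without pair 1, and Id3 to 0.11 over the libraries of Cell Ranger 5.0.1. Other scalings moved the median of all genes by less than 0.02. The lowest control sum, 1680566 UMIs, limits low genes most.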

Other observations

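In the interaction of genotype and cell group against Hox-negative progenitors, all 51 tested G2 and M phase genes had a difference above 0, with a median of 0.40 on the log2 scale, and 6 of 42 S phase genes did, with a median of -0.15. The median over all 10694 genes tested was 0.00. None of these genes passed, genes of a list are not independent of each other, and the lists were not tested. Between genotypes within Hox-positive cells alone, 33 of the 51 G2 and M phase genes were above 0 in the blocked fit. Their median there was 0.03. The genotype change within Hox-negative cells alone was not fitted.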
